A study of Mus musculus with 28 samples.

Results

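The Krüppel-like factors (KLFs) were followed while C10 cells, a line of mouse Pre-B cells, were converted into macrophages. The 10 KLF genes were taken by symbol from the RNA-seq table of 55450 genes (Klf2, Klf3, Klf4, Klf6, Klf7, Klf9, Klf10, Klf11, Klf13 and Klf16). Of these, 9 passed the filter of a mean of at least 0.1 TPM (the abundance of a gene's transcripts per length, scaled to the same total in every library) and were tested among 16415 genes. Klf4 was too low to be tested. C10 is a single line derived from HAFTL cells, and all 12 RNA-seq libraries came from cells that carry C/EBPαER, a fusion of rat C/EBPα with the hormone-binding part of the estrogen receptor. The 0h group (n = 3) was uninduced. The 1h, 12h and 48h groups (n = 3 each) were taken after addition of 100 nM β-estradiol, which moves the fusion into the nucleus, together with 10 nM IL-3 and CSF-1. The agents were added together, so their effects cannot be told apart, and there was no induced group without the transgene. Promoter Capture Hi-C (PCHi-C), which lists the restriction fragments in contact with a captured promoter fragment, gave 1 list per time point from 2 merged replicates.

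KLFs bind GC-rich sequences and CACCC boxes through 3 zinc fingers at the carboxyl end, and their amino-terminal parts decide the partners. KLF2, KLF4, KLF6 and KLF7 act mainly as activators and recruit acetyltransferases. KLF3 recruits the corepressor CtBP, and KLF9, KLF10, KLF11, KLF13 and KLF16 recruit Sin3A. In blood cells, KLF2 is known for keeping lymphocytes quiescent, and KLF4 and KLF6 are known from monocytes and macrophages.

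The pool of KLF transcripts changed in size and in its leading member. Summed over the 10 members it was 19.9 ± 2.28 TPM (SD, n = 3) in uninduced cells. It was 58.4 ± 4.46 TPM after 1h, 56.4 ± 8.09 TPM after 12h and 41.4 ± 2.73 TPM after 48h. After median-of-ratios scaling, described below, the order of the time points differed. The sum was then lowest in uninduced cells (21.4 ± 0.33), reached 39.8 ± 1.58 after 1h and 48.0 ± 4.30 after 12h, and was highest at 48h (59.3 ± 1.61). At 0h, Klf3, Klf13 and Klf2 had the highest means (4.52, 4.22 and 3.90 TPM), and neighbours in this order overlapped. At 1h Klf13 had the highest mean (16.6 TPM) and overlapped Klf2 (15.2 TPM), and at 12h it led with 17.9 TPM. At 48h Klf6 led with 15.98 TPM, or 38.6% of the pool, and overlapped Klf3, the next in order. Apart from Klf3, Klf10 and Klf11, the tested members followed 3 courses. Klf2, Klf7, Klf9 and Klf13 were high at 1h and 12h and low at 0h and 48h, Klf6 rose at every step (the 1h step did not pass after scaling), and Klf16 fell between 0h and 48h. After scaling, Klf7 and Klf13 were higher at 48h than at 0h, and the fall of Klf9 from 12h to 48h did not pass. Klf3 was higher at 48h than at 0h, and Klf10 and Klf11 stayed low.

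**Figure D1:**
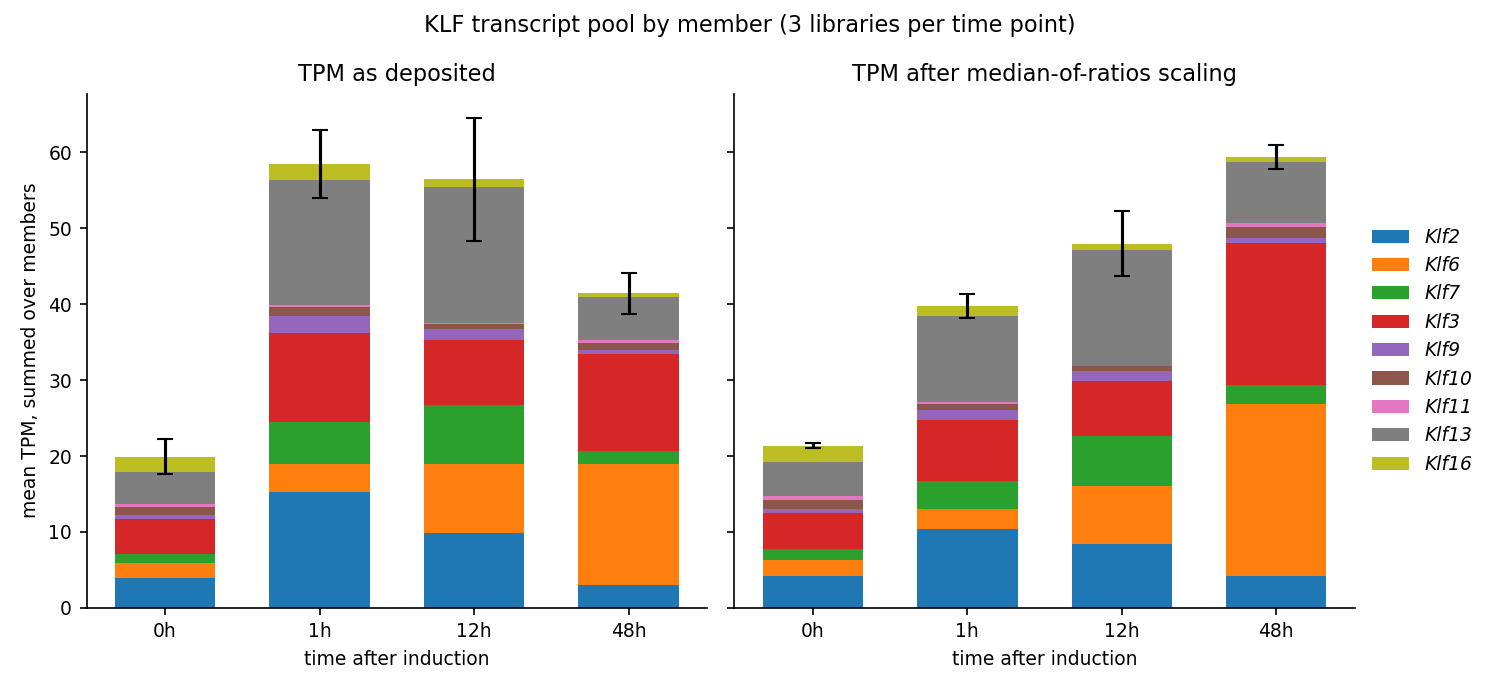
Mean TPM of the KLF genes stacked by time point, as deposited (left) and after median-of-ratios scaling (right), with the SD of the sum over 3 libraries as error bars and Klf4 not drawn. The sum was highest at 1h as deposited (58.4 TPM, against 19.9 at 0h) and at 48h after scaling (59.3, against 21.4 at 0h).

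The scale of the values bears on each change. A pair of overlapping genes at a ribosomal RNA locus took 70.3% to 82.9% of the TPM in each library, so TPM of other genes move with that share. The typical gene among the 16415 moved as well. Against 0h, the median log2 fold change reached 0.59 after 1h and 0.34 after 12h, and -0.18 after 48h. Between 1h and 12h it was -0.29, and between 12h and 48h it was -0.62. After median-of-ratios scaling, which sets the typical gene equal between libraries, these medians lay between -0.01 and 0.07. Every log2 fold change below is the difference of means of log2(TPM + 0.1), which understates the change of low genes, and where scaling changed a call of a member, or moved the fold of a call described here by over 1.5 times, the scaled value is given too. Adjusted p-values are from limma over all genes tested. TPM keep no record of depth. In bulk RNA, fewer cells of a type and less RNA per cell cannot be told apart. The summed TPM of 9 Pre-B cell markers was 294 to 334 at 0h and 26.9 to 38.4 at 48h, and that of 9 macrophage markers was 3.36 to 4.61 at 0h and 678 to 795 at 48h. Most of the latter sum at 48h came from Mmp12 (409 to 575 TPM) and Lyz2 (94.7 to 122 TPM). All 8 tested macrophage markers were higher at 48h than at 0h, beside 15.9% of all genes. Adgre1, a defining marker of mature macrophages, was 0.29 TPM or less in every library. Granulocyte markers reached 17.0 TPM in sum at 12h, with Mpo and S100a9 at 0. Of 8 granulocyte markers 3 were tested (Camp, S100a8 and Prtn3), and all 3 were higher at 12h than at 0h, beside 22.3% of all genes. At 48h 2 of them (Camp and S100a8) were higher than at 0h, beside 15.9%, and 3 after scaling, beside 24.5%. T cell and erythroid markers did not exceed 0.29 TPM in sum in any library. The part of these changes in cell identity in the KLF results was not tested.

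The promoters of 4 members with a rise in TPM are shown, with short motifs marked in them. CACCC and GGGCGG are of the kinds that KLF proteins bind, and CCAAT is a common promoter element of other factors. They are RefSeq windows of the GRCm38.p6 build, from 250 bases before to 50 bases after a RefSeq start, written 5′ to 3′ along the gene. This start can differ from the 5′ end of the gene interval given below. The whole Klf7 window lies inside that interval, whose 5′ end is at 64122282, so it belongs to another start. The table held such a window for 8 of the 10 members, and not for Klf10 and Klf16. Capitals mark CACCC (or GGGTG on the other strand), GGGCGG (or CCGCCC), and CCAAT (or ATTGG), all on both strands. TTGCNNAA (or TTNNGCAA), a sequence of the kind C/EBP factors bind, was searched too. In Klf13 a CCGCCC and a CACCC overlap by 1 base and are printed as 1 run.
Klf2, chr8:72318812-72319111 (plus strand): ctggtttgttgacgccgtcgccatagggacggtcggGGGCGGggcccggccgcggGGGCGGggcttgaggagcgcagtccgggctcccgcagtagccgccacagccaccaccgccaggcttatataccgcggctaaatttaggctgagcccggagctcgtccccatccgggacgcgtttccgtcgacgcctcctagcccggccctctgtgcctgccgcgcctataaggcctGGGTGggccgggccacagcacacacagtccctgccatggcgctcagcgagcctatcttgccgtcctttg
Klf13, chr7:63938866-63939165 (minus strand): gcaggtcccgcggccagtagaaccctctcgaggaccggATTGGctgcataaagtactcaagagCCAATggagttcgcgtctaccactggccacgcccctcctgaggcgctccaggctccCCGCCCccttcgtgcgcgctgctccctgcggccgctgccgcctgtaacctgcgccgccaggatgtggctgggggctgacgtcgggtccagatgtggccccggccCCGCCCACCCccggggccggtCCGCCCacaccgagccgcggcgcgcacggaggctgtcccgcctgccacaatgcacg
Klf7, chr1:64121340-64121639 (minus strand): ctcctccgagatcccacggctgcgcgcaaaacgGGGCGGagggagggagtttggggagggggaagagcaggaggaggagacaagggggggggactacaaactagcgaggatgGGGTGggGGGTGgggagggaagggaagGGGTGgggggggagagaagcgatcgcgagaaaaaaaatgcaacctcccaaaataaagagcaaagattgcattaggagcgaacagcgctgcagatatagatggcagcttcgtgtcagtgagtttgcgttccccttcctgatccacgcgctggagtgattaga
Klf6, chr13:5861239-5861538 (plus strand): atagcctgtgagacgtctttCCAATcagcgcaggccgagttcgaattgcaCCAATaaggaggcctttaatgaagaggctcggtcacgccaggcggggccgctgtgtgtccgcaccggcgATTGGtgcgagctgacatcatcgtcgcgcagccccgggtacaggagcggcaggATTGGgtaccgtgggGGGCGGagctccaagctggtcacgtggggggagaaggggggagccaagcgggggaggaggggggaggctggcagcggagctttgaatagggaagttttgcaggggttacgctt
The Klf2 window held 1 CACCC and 2 GGGCGG, the Klf13 window 1 and 3, the Klf7 window 3 and 1, and the Klf6 window 0 and 1. The Klf6 window held 4 CCAAT, the Klf13 window 2 and those of Klf2 and Klf7 0. TTGCNNAA was in 0 of the 8 windows. Of 32851 promoter windows of this length, 57.5% held CACCC, 35.7% GGGCGG, 37.4% CCAAT and 10.8% TTGCNNAA. A match is a description of the letters, and its absence says nothing about binding.

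Of the activators, Klf2, which restrains lymphocyte proliferation and controls trafficking receptors, rose early (ENSMUSG00000055148, chr8:72319033-72321656). It was 4.12, 3.56 and 4.01 TPM at 0h, 14.32, 15.22 and 16.06 at 1h, 8.59, 10.57 and 10.38 at 12h, and 2.1, 2.31 and 4.42 at 48h. The 1h and 12h libraries all lay above the 0h libraries, and the 48h libraries overlapped them. The log2 fold change was 1.94 (SE 0.24, adjusted p = 0.000342) at 1h and 1.31 (SE 0.24, adjusted p = 0.00191) at 12h against 0h, and -1.78 (SE 0.24, adjusted p = 0.000217) at 48h against 12h. After scaling the 1h value was 1.28 and the 48h against 12h value -1.05. At 12h against 1h it was -0.63 (adjusted p = 0.0898, range 0.00963 to 0.397 over 21 alternatives). The lowest of these came without 48h replicate 3, which is not in this comparison, and the value stayed at -0.63. At 48h against 0h the value was -0.47 (95% CI -1.002 to 0.07, adjusted p = 0.148). Without 48h replicate 3, the highest of its group, this became -0.79 (adjusted p = 0.00221). After scaling it was -0.07 (CI -0.56 to 0.42, adjusted p = 0.837).

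Klf7, a regulator known from neurons and from early lymphocytes, followed a similar course from a lower start (ENSMUSG00000025959, chr1:64029447-64122282, minus strand). It was 0.93, 1.73 and 1.08 TPM at 0h, 5.10, 6.03 and 5.27 at 1h, 7.20, 7.28 and 8.76 at 12h, and 1.22, 1.92 and 1.97 at 48h. All 1h and 12h libraries were above all 0h and 48h libraries. The log2 fold change was 2.09 (SE 0.25, adjusted p = 0.000257) at 1h, 2.58 (SE 0.25, adjusted p = 2.06e-05) at 12h, and -2.14 (SE 0.25, adjusted p = 7.81e-05) at 48h against 12h. After scaling the first was 1.45 and the last -1.43. At 12h against 1h it was 0.49 (adjusted p = 0.189), and 0.81 after scaling (adjusted p = 0.0303, range 0.0303 to 0.353 over 21 alternatives). At 48h against 0h it was 0.44 (adjusted p = 0.189). This became 0.83 (adjusted p = 0.0122) after scaling and 0.68 (adjusted p = 0.0454) without 0h replicate 2. Over its 21 alternatives the adjusted p ran from 0.0122 to 0.469.

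Klf6, induced in many cells by injury and inflammatory signals, rose throughout (ENSMUSG00000000078, chr13:5861482-5870394). It was 2.1, 2.24 and 1.66 TPM at 0h, 3.98, 4.11 and 3.28 at 1h, 7.13, 9.78 and 10.28 at 12h, and 12.91, 17.03 and 17.99 at 48h. No library of a time point overlapped those of the one before. The log2 fold change against 0h was 2.12 (SE 0.21, adjusted p = 2.12e-05) at 12h and 2.93 (SE 0.21, adjusted p = 5.4e-07) at 48h. It was also higher at 12h than at 1h (1.22, adjusted p = 0.00158) and at 48h than at 12h (0.81, adjusted p = 0.00956), and both differences were larger after scaling (1.54 and 1.56). The 1h difference of 0.89 (SE 0.21, adjusted p = 0.0102) was near the shift of all genes and did not pass after scaling (0.25, CI -0.06 to 0.57, adjusted p = 0.308). Its adjusted p ran from 0.00746 to 0.308 over 21 alternatives.

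Klf4, which can drive monocyte differentiation, was listed at 0 in 11 of 12 libraries and at 0.04 TPM in 1 library at 1h (ENSMUSG00000003032, chr4:55527143-55532466, minus strand). No fold change was computed for it.

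**Figure D2:**
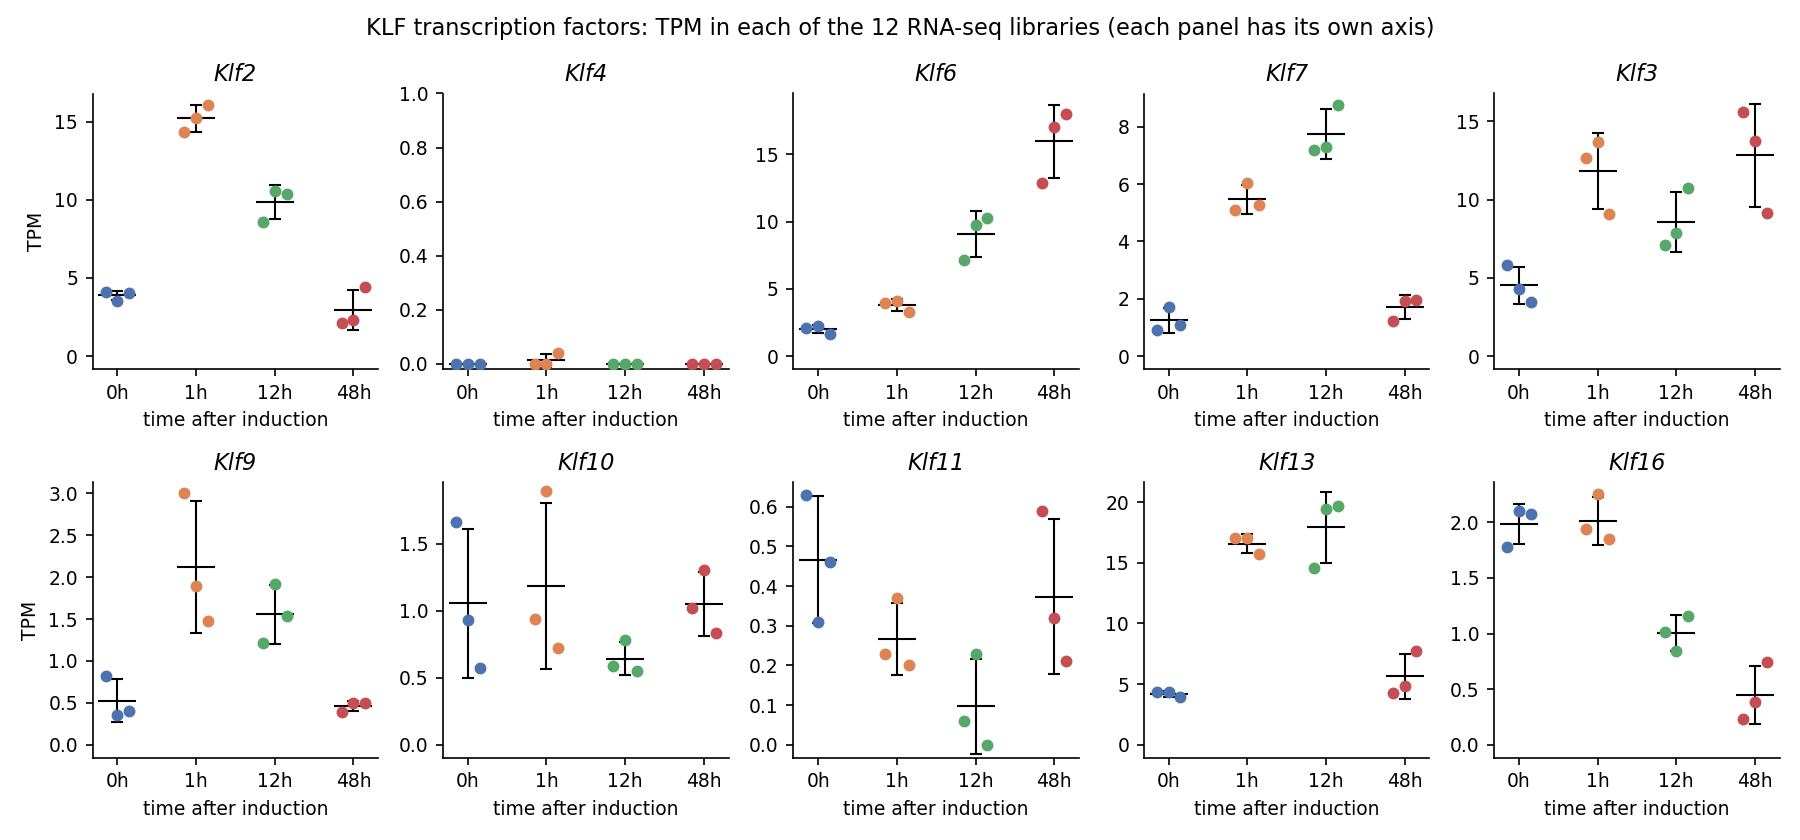
TPM of each KLF gene in the 12 libraries (points), with the mean and SD of the 3 libraries of each time point (bars) and a separate axis for each gene. Klf2, Klf7, Klf9 and Klf13 were high at 1h and 12h, Klf6 rose to 12.91 to 17.99 TPM at 48h, and Klf16 fell to 0.23 to 0.74 TPM.

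Klf3, the CtBP-binding repressor, was 5.82, 4.28 and 3.45 TPM at 0h, 12.62, 13.70 and 9.08 at 1h, 7.09, 7.89 and 10.75 at 12h, and 15.58, 13.72 and 9.14 at 48h (ENSMUSG00000029178, chr5:64803388-64832901). Every induced library was above the highest 0h library. Klf3 rose by 1.48 on the log2 scale at 48h (SE 0.27, adjusted p = 0.000836), and by 1.89 after scaling (adjusted p = 5.16e-05). The differences at 1h (1.38, adjusted p = 0.0045) and 12h (0.92, adjusted p = 0.0239) did not pass after scaling (0.72, adjusted p = 0.0783, and 0.59, adjusted p = 0.0818). Over 21 alternatives their adjusted p ran from 0.0032 to 0.137 and from 0.0157 to 0.147. The 12h call was also lost without replicate 2 or 3 of 0h or replicate 2 or 3 of 12h (0.75 to 0.97, adjusted p = 0.0503 to 0.0923). At 48h against 12h the value was 0.56 (adjusted p = 0.131), which became 1.304 after scaling (adjusted p = 0.00212) and 0.79 without 48h replicate 3 (adjusted p = 0.0436). Its adjusted p ran from 0.00212 to 0.354 over 21 alternatives.

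Among the Sin3A-binding members, Klf13, known from T cells as a regulator of the chemokine RANTES, rose early (ENSMUSG00000052040, chr7:63886351-63938915, minus strand). It was 4.34, 4.38 and 3.93 TPM at 0h, 17.01, 17.03 and 15.68 at 1h, 14.57, 19.44 and 19.71 at 12h, and 4.30, 4.84 and 7.76 at 48h. The 1h and 12h libraries were all above the others. The log2 fold change was 1.95 (SE 0.22, adjusted p = 0.000146) at 1h, 2.05 (SE 0.22, adjusted p = 3.67e-05) at 12h and -1.68 (SE 0.22, adjusted p = 0.00014) at 48h against 12h. After scaling the first was 1.29 and the last -0.95. At 48h against 0h the value was 0.36 (adjusted p = 0.204), and 0.77 after scaling (adjusted p = 0.00326). Over 21 alternatives this adjusted p ran from 0.00189 to 0.635.

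Klf9, a target of glucocorticoid and thyroid hormone receptors, rose at low levels (ENSMUSG00000033863, chr19:23141226-23168134). It was 0.82, 0.35 and 0.40 TPM at 0h, 3.00, 1.89 and 1.48 at 1h, 1.21, 1.92 and 1.54 at 12h, and 0.39, 0.50 and 0.50 at 48h. The 1h and 12h libraries did not overlap the 0h libraries. The log2 fold change was 1.85 (SE 0.34, adjusted p = 0.00312) at 1h and 1.46 (SE 0.34, adjusted p = 0.00705) at 12h. The 1h value was 1.24 after scaling, and with only replicates 1 and 2 of each time point the 12h value did not pass (1.34, adjusted p = 0.107). At 48h against 12h it was -1.54 (SE 0.34, adjusted p = 0.00418), and -0.89 after scaling (adjusted p = 0.0508, range 0.00231 to 0.0615 over 21 alternatives).

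Klf16 fell by 2.03 on the log2 scale between 0h and 48h (SE 0.31, adjusted p = 0.000224), from 1.78, 2.1 and 2.08 TPM to 0.23, 0.38 and 0.74 (ENSMUSG00000035397, chr10:80567124-80577321, minus strand). At 1h it was 1.94, 2.26 and 1.85 TPM, and at 12h 1.01, 0.84 and 1.16. The 0h and 48h libraries did not overlap, and the value was -1.71 after scaling (adjusted p = 0.000516). The 12h value of -0.93 against 0h (adjusted p = 0.0408) was lost without any 1 of the 0h, 1h or 12h libraries or 48h replicate 2 (adjusted p = 0.0525 to 0.122), and was -1.24 after scaling (adjusted p = 0.00755). The values of -0.95 at 12h against 1h (adjusted p = 0.0474) and -1.10 at 48h against 12h (adjusted p = 0.0157) did not pass after scaling (adjusted p = 0.162 and 0.289). Over 21 alternatives these ran from 0.0121 to 0.162 and from 0.00135 to 0.289. The first was also lost without any 1 of the 0h, 1h or 12h libraries or 48h replicate 2 (adjusted p = 0.0583 to 0.145). The second was lost without 12h replicate 3 (adjusted p = 0.0605) or 48h replicate 1 (adjusted p = 0.058).

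Klf10 and Klf11, both induced by TGF-β in other cells, were among the lowest members. Klf10 (ENSMUSG00000037465, chr15:38291463-38300706, minus strand) lay between 0.55 and 1.89 TPM in all 12 libraries, and its value passed in no comparison with the TPM as deposited. After scaling it was higher at 48h than at 12h (1.302, adjusted p = 0.0262, range 0.0262 to 0.48 over 20 alternatives), and its 1h value turned from 0.16 to -0.43. Klf11 (ENSMUSG00000020653, chr12:24651274-24662789) was 0.63, 0.31 and 0.46 TPM at 0h, 0.23, 0.37 and 0.20 at 1h, 0.06, 0.23 and 0 at 12h, and 0.59, 0.32 and 0.21 at 48h. Its log2 fold change was -1.66 at 12h against 0h (SE 0.48, adjusted p = 0.0224) and 1.36 at 48h against 12h (SE 0.48, adjusted p = 0.0449). The 12h call was lost without replicate 1 or 3 of 0h or replicate 1 or 3 of 12h (adjusted p = 0.0599 to 0.0795). The later call was lost in 10 of the 12 fits that leave out 1 library, all but those without 12h replicate 2 or 48h replicate 3 (adjusted p = 0.0516 to 0.166). It was lost as well with a pseudocount of 1 or 0.01, with no filter, without the 20 most abundant genes and with only the 6 libraries compared, which also ended the 12h call (adjusted p = 0.0665). Over 20 alternatives the first value ran from -3.16 to -0.42 and the later one from 0.32 to 3.11. All 12h values of Klf11 were 0.23 TPM or less.

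**Figure D3:**
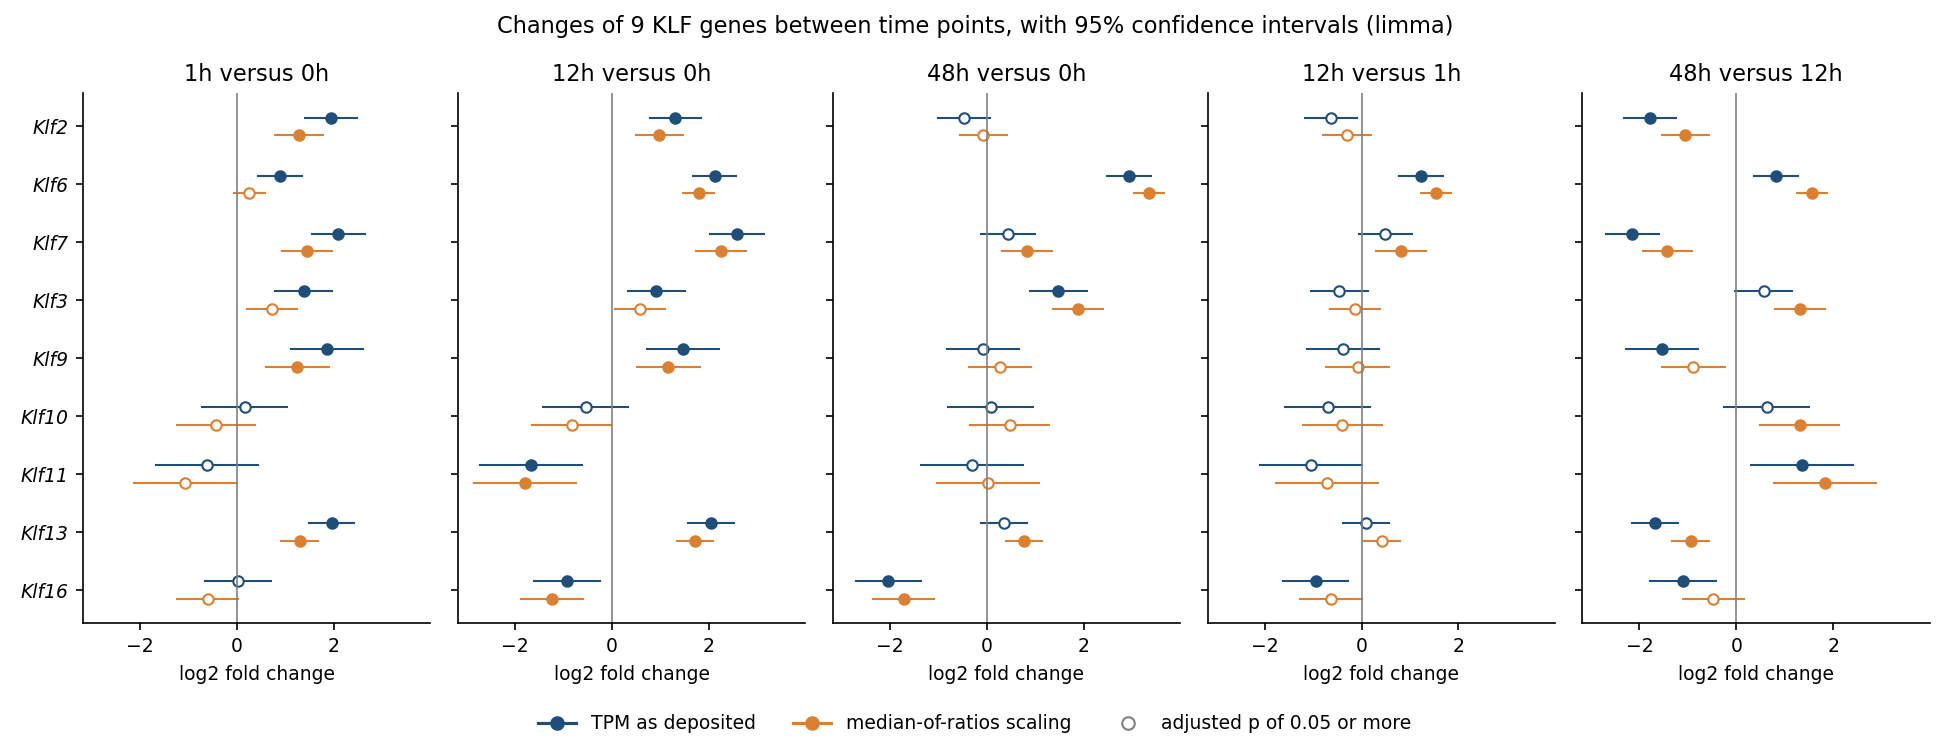
Log2 fold change of the 9 tested KLF genes in 5 comparisons, with 95% confidence intervals from limma, for TPM as deposited and after median-of-ratios scaling. Filled points have an adjusted p under 0.05. Klf6 reached 2.93 at 48h and Klf7 2.58 at 12h, and the fall of Klf2, Klf7 and Klf13 from 12h to 48h passed on both scales.

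Counted over the members, 6 of 9 were higher at 1h than at 0h, beside 24.1% of all genes tested, and 0 were lower (also 0 at an unadjusted p under 0.05 in limma), beside 1.41%. After scaling 4 of 9 were higher, beside 5.42%, and 0 lower (1 at an unadjusted p under 0.05, Klf11), beside 4.92%. At 12h, 6 were higher (22.3% of all genes) and 2 lower (7.82%), and after scaling 5 were higher (16%) and 2 lower (14.5%). At 48h, 2 were higher (15.9%) and 1 lower (27.2%), and after scaling 4 were higher (24.5%) and 1 lower (22%). The median over the 9 members for these comparisons was 1.38, 1.31 and 0.09, and after scaling 0.72, 0.98 and 0.48. These 3 comparisons share the 0h libraries. Between successive time points, 1 member was higher (6.98%) and 1 lower (15%) at 12h against 1h, and 2 were higher (4.1%) and 5 lower (31.7%) at 48h against 12h. After scaling these were 2 higher (11.3%) and 0 lower (8.77%; 0 at an unadjusted p under 0.05 as well), and 4 higher (10.5%) and 3 lower (11.9%). Klf3, Klf7, Klf9 and Klf13 overlap other annotated genes, whose reads could not be told apart here.

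The 16 KLF and SP relatives outside the members hold the factors that compete for the same sequences, and 7 of them were tested. Klf5, Klf14, Klf15 and Klf17 were listed at 0 in all 12 libraries. Sp1, Sp2 and Sp3 were higher at 1h (3 of 7, beside 24.1% of all genes). Sp2 and Sp3 were 1.304 and 1.32 higher (adjusted p = 0.000692 and 0.00373), and 0.66 and 0.67 after scaling, but Sp1 did not pass after scaling (0.12, adjusted p = 0.775, against 0.77 and 0.0338 with the TPM as deposited). At 48h against 0h, 1 of the 7 was higher and 2 lower, beside 15.9% and 27.2% of all genes. Sp3 was 0.83 higher (adjusted p = 0.0179), and 1.24 higher after scaling. Sp1 and Klf12 had values of -0.79 and -0.97 (adjusted p = 0.0178 and 0.0131). After scaling 1 was higher (Sp3) and 0 lower, beside 24.5% and 22%. Of 14 genes for KLF partners, 6 were higher at 1h, beside 24.1% of all genes, and their median of 0.65 was near the 0.59 of all genes. After scaling 1 was higher, beside 5.42%: Ep300, the acetyltransferase p300 (1.23, adjusted p = 0.00107, against 1.88 as deposited). At 48h, 3 were higher and 5 lower, beside 15.9% and 27.2% of all genes, and after scaling 3 and 4, beside 24.5% and 22%. Ep300 was 1.30 higher (adjusted p = 0.000857), Ctbp1, which binds KLF3, had a value of -1.36 (adjusted p = 0.000635), and Hdac2, a deacetylase of the Sin3A complex, had a value of -2.12 (adjusted p = 1.85e-05).

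Klf2 is induced in other cells by the kinase ERK5 and MEF2 factors, and in lymphocytes by FOXO1. Of these 6 genes, 1 was higher and 2 lower at 1h, beside 24.1% and 1.41% of all genes. Foxo1 was 4.15, 2.88 and 2.80 TPM at 0h and 0.78, 0.82 and 0.57 at 1h, and its log2 fold change was -2.03 (SE 0.23, adjusted p = 0.000207). Mef2d was lower as well (-0.91, adjusted p = 0.0147, and -1.56 after scaling). Mef2a was 1.17 higher (adjusted p = 0.00427), which did not pass after scaling (0.52, adjusted p = 0.125). The gene of ERK5, Mapk7, had a value of 0.32 (adjusted p = 0.537).

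Of 5 known KLF2 targets, 4 were tested. Of these, 3 (Itgb7, Cdkn1a and S1pr1) were higher at 12h and at 48h than at 0h, beside 22.3% and 15.9% of all genes. S1pr1, the receptor for lymphocyte egress, was 0.05 to 0.21 TPM at 0h and 1.98 to 2.41 at 48h (3.26, adjusted p = 1.21e-05). S1pr1 and Cdkn1a had their highest means at 48h (2.21 and 23.0 TPM), when Klf2 was at 2.1 to 4.42 TPM. Itgb7 had its highest mean at 12h (2.98 TPM, against 0.77 at 48h, adjusted p = 0.0795). The relation of these genes to Klf2 was not tested. Thbd, thrombomodulin, was 1.52, 2.17 and 1.68 TPM at 0h, 6.40, 6.53 and 5.75 at 1h, and 1.21, 1.46 and 2.34 at 48h, with 1.76 at 1h against 0h (adjusted p = 0.000672), and 1.11 after scaling.

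Of 6 myeloid genes linked to Klf4, 4 were tested, and 2 were higher at 48h (15.9% of all genes), when Klf4 was listed at 0. Itgam, the integrin chain CD11b, was 5.76 higher (adjusted p = 2.02e-07), and Cd14 was listed at 0 in the 0h libraries and at 36.18 to 61.6 TPM at 48h. Both are also among the macrophage markers above. Mrc1 (0.48, adjusted p = 0.342) and Arg1 (0.19, adjusted p = 0.867) did not pass at 48h, and Mrc1 was lower at 12h (-1.76, adjusted p = 0.0044). Chil3 and Retnla were listed at 0 in all 12 libraries. Of 9 tested genes of TGF-β signalling, 6 were higher at 1h, beside 24.1% of all genes, and 0 after scaling, beside 5.42%. At 48h, 2 were higher (Smad4 and Tgfbr2) and 2 lower (Tgfb1 and Smad7), beside 15.9% and 27.2% of all genes. After scaling 3 were higher and 1 lower (Tgfb1), beside 24.5% and 22%. Tgfbr2, the type II receptor, was 2.82 higher at 48h (adjusted p = 8.01e-08). Of 6 steroid and thyroid receptor genes and their targets, which bear on Klf9, 2 were higher and 1 lower at 1h (24.1% and 1.41% of all genes). After scaling 1 was higher and 2 lower (Per1 and Thra), beside 5.42% and 4.92%. Per1 had a value of -1.03 at 1h (adjusted p = 0.0237), and -1.64 after scaling (adjusted p = 0.00199). Nr3c1, the glucocorticoid receptor, was 1.45 higher at 1h (adjusted p = 0.00135) and 0.803 after scaling, and Tsc22d3, a glucocorticoid target, was 0.98 higher (adjusted p = 0.00719) but 0.33 after scaling (adjusted p = 0.246). Fkbp5, another such target, had a value of 0.04 at 1h (adjusted p = 0.966).

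For each member the 3 genes with the most similar course were found by the root mean square difference over the 12 libraries of log2(TPM + 0.1), centred on the 0h mean. For Klf13 they were Plekhg2, D16Ertd472e and Rnf41 (0.20 to 0.23), for Klf2 Mrtfa, Plagl2 and Gmcl1 (0.32 to 0.37), and for Klf7 Dstn, Slc12a4 and Gypc (0.31 to 0.33). For Klf6 they were Cd47, Tgfbr2 and Eif2ak2 (0.23 each), for Klf3 Lrch3, Fcho2 and Mef2a (0.22 to 0.26) and for Klf16 Hint1, Fam213a and Rpl34 (0.18 to 0.22). Tgfbr2, for example, had means of 2.64, 4.17, 10.1 and 19.2 TPM at 0h, 1h, 12h and 48h, beside 2.00, 3.79, 9.06 and 15.98 TPM for Klf6. For Klf9 the nearest were Itprip, Cyfip2 and Tmem62 (0.30 to 0.33), for Klf10 Tut4, Pip4p2 and Phf20 (0.33 to 0.37) and for Klf11 Tpst1, Chchd7 and Itga6 (0.52 to 0.58).

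PCHi-C gave 1 captured fragment for each member. There is 1 list per time point, so differences between lists have no replicate check. In the order 0h, 1h, 12h, 48h the numbers of contacts were 25, 33, 20 and 28 for Klf2, 13, 9, 25 and 34 for Klf6, 17, 12, 42 and 29 for Klf7, and 55, 51, 54 and 59 for Klf13. For Klf3 they were 52, 42, 53 and 63, on a fragment that also holds the starts of C230096K16Rik and Gm20033. The median over 16521 protein-coding genes was 5 in every list. Klf3 and Klf13 stood at percentiles 97.9 and 98.2 of these genes at 0h. In the same order Klf9 had 8, 10, 13 and 13 contacts, Klf11 11, 15, 14 and 9, Klf10 8, 6, 6 and 4, and Klf16 6, 7, 3 and 6. The fragments of Klf6, Klf9 and Klf16 also hold the starts of 1700016G22Rik, 2410080I02Rik and Gm26710. Klf4, at 0 TPM, had 1, 2, 3 and 9 contacts, mostly with fragments about 677 to 698 kb upstream.

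**Figure D4:**
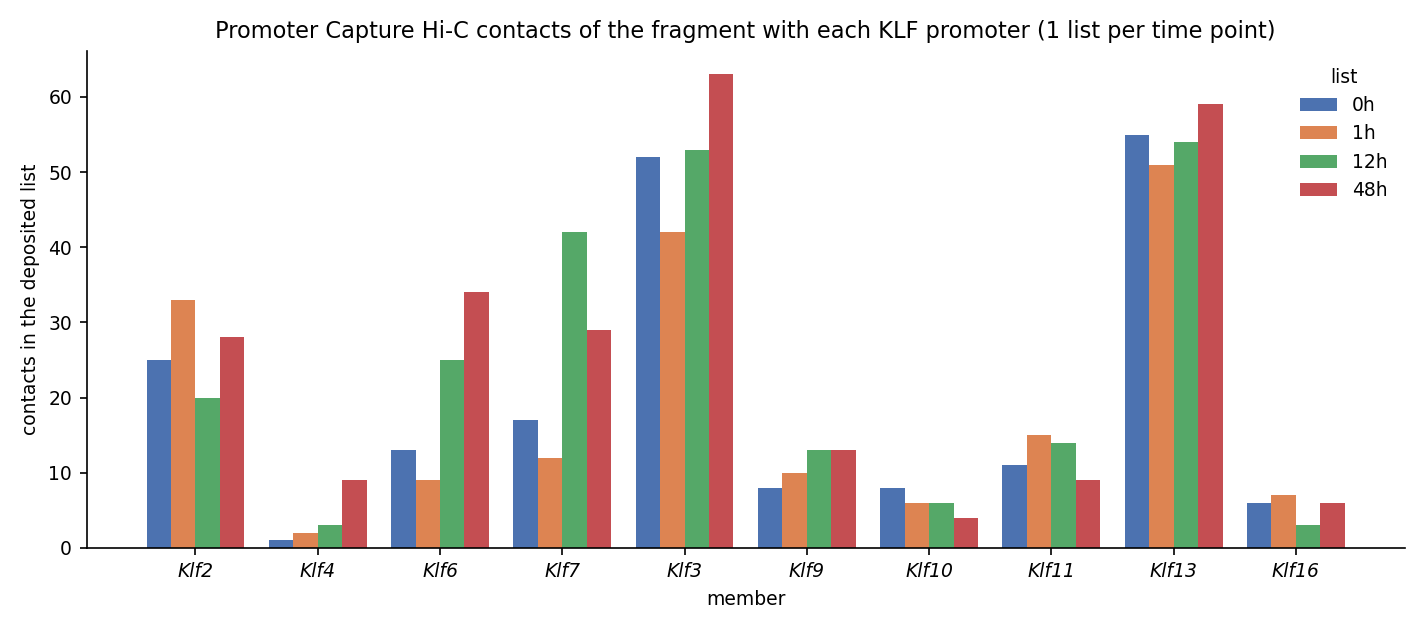
Number of PCHi-C contacts of the fragment with each KLF promoter in the lists of 0h, 1h, 12h and 48h (bars). Klf6 had 13 contacts at 0h and 34 at 48h, Klf7 had 42 at 12h, and Klf13 had between 51 and 59.

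Of the 196 contacts of members listed at 0h, 66.3% (95% Wilson interval 59.5 to 72.6) were listed again at 1h, 65.8% (58.9 to 72.1) at 12h and 74.5% (68.0 to 80.1) at 48h. For all 18175 captured fragments the shares were 58.9%, 54.3% and 56.1%. Contacts with neighbouring fragments are not independent, the intervals cover counting error only, and the difference was not tested. Of the 51 contacts of members with a score of at least 10 at 0h, 100%, 96.1% and 98.0% were listed again, and for all captured fragments 90.4%, 86.4% and 87.1%. In all lists together the members had 381 contacts, of which 98 (25.7%) were in all 4, beside 18.4% for all captured fragments. For Klf13 36 of 76 and for Klf2 18 of 40 were in all 4, for Klf7 7 of 51, for Klf9 3 of 25, for Klf6 1 of 48 and for Klf4 0 of 11.

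The numbers of contacts of Klf6 and Klf7 differed most between lists (9 to 34 and 12 to 42), and the distance bands that follow were chosen after they were seen. For Klf6, 0, 0, 2 and 12 contacts lay 223 to 473 kb upstream in the lists of 0h, 1h, 12h and 48h, and 8, 8, 20 and 20 within 172 kb upstream. Another 5 contacts at 0h lay 686 to 789 kb downstream, of which 1 was listed at 1h and 0 later. For Klf7, 6, 3, 21 and 14 contacts lay 161 to 259 kb upstream, and 0, 0, 1 and 5 lay 105 to 132 kb upstream. Klf7 had its highest TPM and its most contacts at 12h, and Klf6 both at 48h. Klf2, whose TPM rose and fell, had 22, 21, 16 and 23 contacts within 100 kb, on 25 fragments in all. Klf13 had 54 contacts at 12h and 59 at 48h, when its mean TPM was 17.9 and 5.63. With 4 lists, no relation between contacts and TPM was tested.

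**Figure D5:**
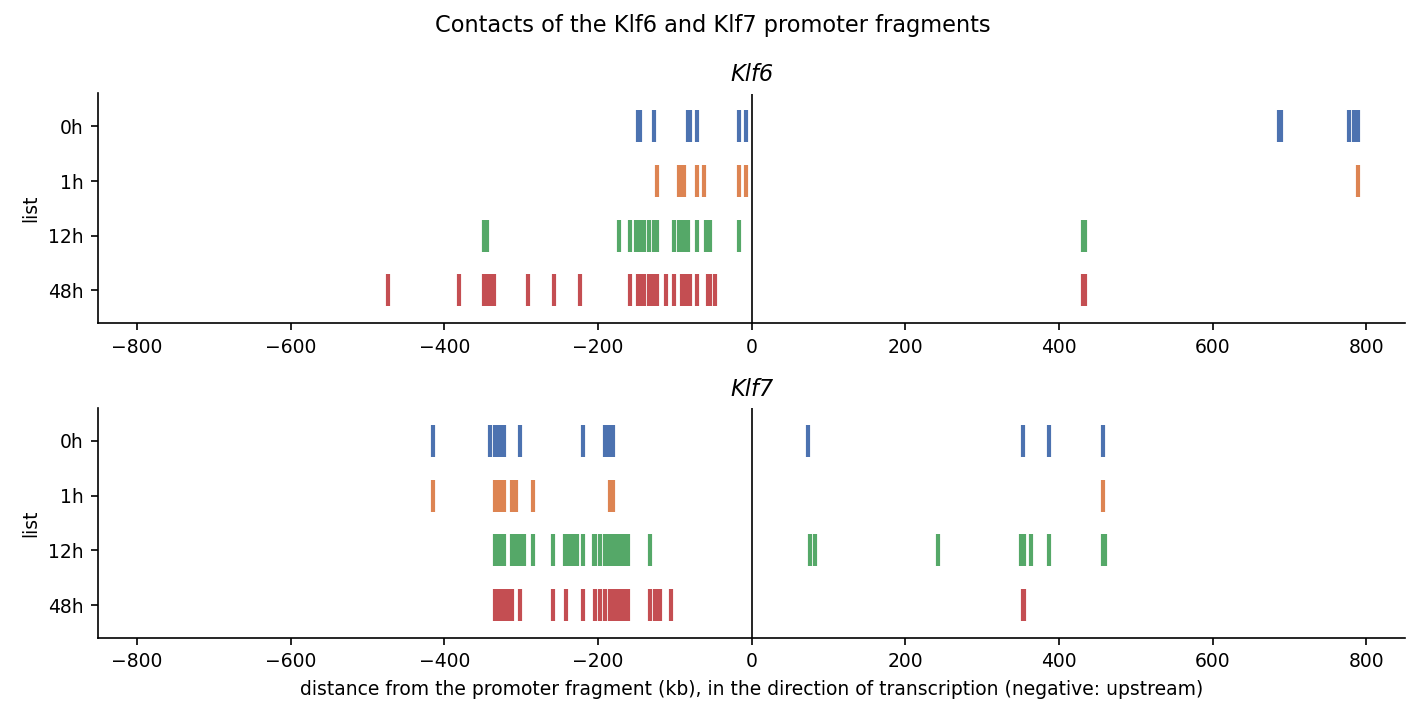
Contacts of the Klf6 and Klf7 promoter fragments in the 4 lists (rows), by distance in kb along the direction of transcription, with upstream to the left. Each mark is 1 contact. The Klf6 marks 223 to 473 kb upstream were 0 at 0h and 12 at 48h, and the Klf7 marks 161 to 259 kb upstream were 6 at 0h and 21 at 12h.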

How the data were processed

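RNA-seq was measured in 12 libraries and PCHi-C at 4 time points. The authors merged technical replicates, trimmed reads with Trim Galore 0.6.2, mapped them to mm10 with HISAT2 2.1.0 and deposited TPM obtained with RSEM (submitters' processing notes and the study's methods). For PCHi-C the authors merged 2 replicates and called contacts at a CHiCAGO score of 5. The deposited 0h list gives that score. The later lists as deposited give whole numbers whose unit is not stated, so only the listing of a contact was used. The 0h score served for 1 alternative.

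Genes whose TPM averaged 0.1 or more were tested on log2(TPM + 0.1) with limma 3.58.1 in R 4.3.3 (1 model of 4 time points, 12 libraries, mean-variance trend, Benjamini-Hochberg adjustment within each comparison, threshold 0.05). P-values measure the spread between the 3 libraries labelled as biological replicates, pooled over the 4 time points and moderated by the trend over genes. They therefore also depend on libraries outside the comparison. Alternatives were median-of-ratios scaling, leaving out the 20 most abundant genes, pseudocounts of 0.01 and 1, other filters, no trend, only the 6 libraries compared, a replicate block, each library left out and a log2 threshold of 1. A fit of only replicates 1 and 2 was added after seeing the data. For contacts they were a tolerance of 10 kb, a 0h score of at least 10 and only fragments at the 5′ end of the gene. On simulated data for 48h versus 0h (16415 genes), 22 of 100 genes changed by 1 and 66 of 100 changed by 2 on the log2 scale were called. Their median estimates were 0.96 and 1.98, and 3 unchanged genes were called. Only these genes were changed, all with a mean TPM of at least 1, and the noise was independent between genes. In the real comparison 15.9% of genes were called higher and 27.2% lower, which makes the adjusted threshold less strict. The simulated rates therefore do not carry over to the results above. TPM keep no depth, so precision rests on the replicates.

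Contacts were assigned to genes by transcript starts of GENCODE release M21, in Python 3.11.15 with pandas 2.3.3, numpy 2.4.6 and statsmodels 0.14.6. Genes named are the members, the genes of the pathway and marker lists, and the 3 genes nearest to each member with a mean TPM of at least 1. The members and lists were chosen with earlier results of these data known. The list of KLF2 targets was shortened by 1 gene, which is not reported here. Hi-C data were not used here.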

Additional observations from a re-analysis of the deposited data

How the results depend on the processing

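The rise of Klf2, Klf7 and Klf13 at 1h and 12h, of Klf9 at 1h, of Klf6 at 12h and 48h and between successive later time points, and of Klf3 at 48h, the fall of Klf2, Klf7 and Klf13 from 12h to 48h and that of Klf16 at 48h passed under every alternative fit. The value of Klf6 at 48h against 12h (0.81) lay under the log2 threshold of 1. Counts of members moved as follows, and the cause was not tested unless stated. Lower at 12h against 0h (2 members) became 1 with a pseudocount of 0.01, no filter, a mean TPM of at least 1 (which leaves Klf11 out), only the 6 libraries compared or a log2 threshold of 1, and 0 to 2 with 1 library left out. Higher at 48h against 0h (2) became 4 with median-of-ratios scaling and 4 without the 20 most abundant genes, and lower (1) was 1 to 2 with 1 library left out. At 12h against 1h, higher (1) became 2 with median-of-ratios scaling. Lower (1) became 0 with that scaling, without the 20 most abundant genes, with a pseudocount of 0.01, no filter, no trend or a log2 threshold of 1, 2 with a pseudocount of 1 or only the 6 libraries, and 0 to 2 with 1 library left out. At 48h against 12h, higher (2) became 4 with median-of-ratios scaling, 1 with a pseudocount of 1 or 0.01, no filter, a mean TPM of at least 1, only the 6 libraries or a log2 threshold of 1, and 1 to 3 with 1 library left out. Lower (5) became 3 with that scaling and 3 without the 20 most abundant genes. A fit of only replicates 1 and 2 of each time point was chosen after seeing the data. It gave 4 higher and 0 lower at 12h against 0h, 2 lower at 48h against 0h and 2 lower at 12h against 1h. In this fit the calls of Klf3, Klf9, Klf11 and Klf16 at 12h against 0h, of Klf16 at 12h against 1h and of Klf9 and Klf11 at 48h against 12h were lost (adjusted p = 0.0515 to 0.17).

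Of the members' own values, 17 changed sign under an alternative, and 0 of these passed the threshold on either side. With median-of-ratios scaling and without the 20 most abundant genes, Klf10 at 1h became -0.43 and -0.31, Klf16 at 1h -0.61 and -0.47, and Klf9 at 48h 0.28 and 0.25. Klf11 at 48h became 0.033 with the scaling. With 1 library left out, Klf10 at 1h ran from -0.21 to 0.52, Klf16 at 1h from -0.0615 to 0.0762, Klf9 at 48h from -0.27 to 0.24 and Klf10 at 48h from -0.25 to 0.45. With only replicates 1 and 2, Klf10 at 48h became -0.105 and Klf13 at 12h against 1h became -0.016.

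The share of 0h contacts listed again rose with a tolerance of 10 kb (88.8% after 1h, 89.8% after 12h, 87.2% after 48h), as it did for all captured fragments (83.8%, 79.9% and 78.3%), and for 0h scores of at least 10 it was 100%, 96.1% and 98.0%. Fragments at the 5′ end of the gene gave the same shares. Same-numbered libraries were not treated as pairs, since r of their deviations was above 0.1 in only 7 of 18 pairs. For replicate 3 it was above 0.1 in 5 of 6 pairs (0.07 to 0.26), for replicate 1 in 2 of 6 and for replicate 2 in 0 of 6. The replicate 3 libraries also had the lowest ribosomal RNA share of each time point (70.3% to 76.9%). A replicate block changed no call of a member: the number higher at 1h stayed at 6.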
